A study of Mus musculus with 32 samples.

Results

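The genes described here make cholesterol and fatty acids, control that synthesis, or move sterols within and out of cells. The 33 genes were matched by symbol to the count tables of 32 mouse epidermis samples, which hold 55401 gene identifiers, and all 33 were among the 15546 genes tested. They comprise 7 genes of the mevalonate steps, 12 of the squalene and sterol steps, 5 regulators of the SREBP transcription factors, 1 intracellular sterol carrier, 5 genes of fatty acid synthesis and 3 genes of sterol export or of the liver X receptor (LXR) program. The rule matches a list of symbols and uses no measured value.

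The samples are epidermis of single mice in 8 groups of 4, split by sex (male, female), genotype (WT, KO) and treatment (Control, UV). The mice were SKH-1/SV129/BL6/J animals of 10 to 14 weeks. UV mice received 1 dose of 120 mJ/cm2 on the back and were sampled after 24 h, and Control mice were sham treated. KO mice are labelled -/- for Ppard, the gene of the nuclear receptor PPARbeta, in every cell, and WT mice +/+. The deleted part of the gene is not given in the sources used here, and Ppard counts did not drop out in KO mice. They ranged from 70.3 to 88.9 reads per 1000000 counted reads with TMM scaling (cpm) in KO Control and from 87.3 to 105 cpm in WT Control mice, and from 175 to 239 cpm in KO UV and 252 to 326 cpm in WT UV mice. The KO UV mice were lower without overlap (log2 fold change -0.42, adjusted P = 0.0011), while the Control mice had -0.26 (adjusted P = 0.16). Counts over the whole gene thus differed with the label but did not check each mouse for the deletion, and "KO" below means the mice so labelled.

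Between 22919428 and 40653581 reads were counted on genes per mouse. Keratinocyte markers fitted the tissue label, with Krt1 at 23090 to 45460 cpm and Krt14 at 2208 to 7691 cpm over the 16 Control mice. Of 6 adipocyte genes, Adipoq, Plin1 and Lep did not reach the level needed for testing. Cfd, Cidec and Fabp4 did, and 1 of these 3 was called higher under UV in each genotype. The adipocyte sum was 0.478 to 2.82 cpm in WT Control and 0.618 to 4.70 cpm in WT UV mice. It was 0.509 to 11.8 cpm in KO Control and 1.15 to 8.64 cpm in KO UV mice. The markers themselves moved with UV. The summed level of 5 suprabasal markers had a median of 64680 cpm in WT Control and 13290 cpm in WT UV mice (71010 and 14040 cpm in KO), and all 5 fell in either genotype. The sum of 5 basal markers had medians of 11420 and 21970 cpm in WT and of 9344 and 25810 cpm in KO mice. Single basal markers were mixed, with 2 called higher (Krt14, Itga6) and 1 lower (Krt5) in WT, and 4 higher in KO mice. In a bulk sample, fewer cells of a type and less RNA per cell cannot be told apart, and the part of this shift in the results below was not tested. The sum of 11 sebocyte markers ranged from 41.8 to 342 cpm in WT Control, 96.3 to 405 cpm in WT UV, 28.2 to 229 cpm in KO Control and 158 to 1259 cpm in KO UV mice. Several libraries stood apart. In KO UV female 54F 6 dermal fibroblast markers summed to 1982 cpm against 6.0 to 30.0 cpm in the other 7 KO UV mice and 1.73 to 8.43 cpm in the WT UV mice. The sum of 6 skeletal muscle markers ran from 0.685 to 2584 cpm and was over 1000 cpm in 9 mice of both genotypes, sexes and treatments, though of no Control male (60F, 38M, 44F, 52F, 54F, 59F, 71F, 58M and 63F), against at most 567 cpm in the other 23. Results that change without 54F are given both ways, and the counts of called members were repeated without the 9.

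Cholesterol is built from acetyl-CoA. The mevalonate steps give isoprenoid units, farnesyl diphosphate is joined into squalene, and squalene is closed into lanosterol and trimmed to cholesterol. The transcription factors SREBP1 and SREBP2 (genes Srebf1 and Srebf2) sit in the endoplasmic reticulum with the escort SCAP. When sterols are low, SCAP carries them to the Golgi for cleavage, and the released part switches on genes of sterol and fatty acid synthesis through sterol regulatory elements, often next to binding sites of the CCAAT-binding factor NF-Y. INSIG proteins hold the complex back when sterols are plentiful. LXR senses oxysterols and drives genes for sterol export. In the epidermis, cholesterol and fatty acids of the upper layers are part of the permeability barrier.

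Set per length, as cpm per kb of exon, the members spanned a 102-fold range of medians in WT Control mice. Hmgcs1, which makes HMG-CoA, was the highest with a median of 151 cpm per kb (range 107 to 170, n = 8). Acly, which makes cytosolic acetyl-CoA from citrate, followed with 96.2 (79.6 to 111) and Cyp51, the lanosterol demethylase, with 79.4 (59 to 90.9). The ranges of these neighbours met, as did most others further down the order. Idi1, the isopentenyl diphosphate isomerase, and Acss2, the cytosolic acetyl-CoA synthetase, were the lowest, with medians of 1.49 (0.957 to 2.04) and 1.47 (0.977 to 2.14) cpm per kb. Reads that align to several genes were not counted, and 21.9% of the 100-base windows of Idi1 transcripts and 21.4% of those of Fdps also occur in transcripts of other genes, so their levels are uncertain. The share was 28.9% for Acat2, 23.7% for Acaca, 18.3% for Fdft1 and 14.6% for Me1, and at most 8.22% for any other member.

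**Figure D1:**
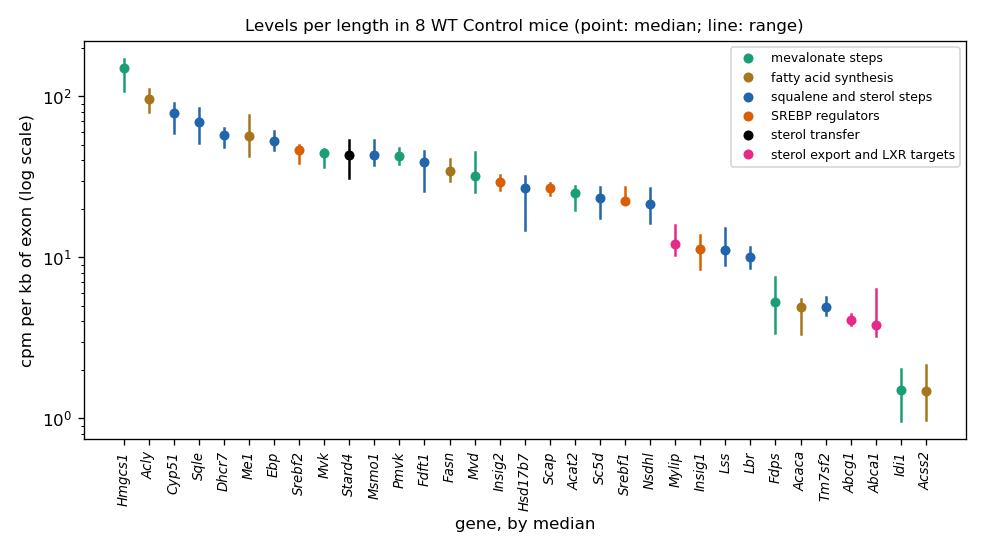
Level of each gene per kb of exon (cpm per kb, log scale) in the 8 WT Control mice, with the median as a point, the range as a line and the role as colour. Hmgcs1 stands at the top with 151 cpm per kb, and Idi1 and Acss2 at the bottom with 1.49 and 1.47.

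The spread between the 8 mice of each genotype and treatment, both sexes together, was taken for each member. The coefficient of variation had a median of 14.1% in WT Control, 12% in WT UV, 13.8% in KO Control and 19.5% in KO UV mice. Scap was the steadiest gene in WT Control (5.51%) and Acss2 the most variable (26.6%). Abca1 varied most after UV, with 35.0% in WT and 68.1% in KO mice. The KO UV mice included 54F at 115 cpm, against 16.6 to 59.1 cpm in the other 7. Their females lay at 49.7 to 115 cpm and their males at 16.6 to 34.9 cpm. The coefficient without 54F is not given here.

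Promoter sequence was read from RefSeq (GRCm38.p6) for 250 bases before to 50 after each start. Promoters of 28 members were found, 37 in all, and those of Fdps, Sqle, Fdft1, Stard4 and Abcg1 were not. The sterol regulatory element was searched as TCACNCCAC, the CCAAT box as CCAAT and the GC box as GGGCGG, each on both strands. The element lay in 1 of the 28 members (3.57%), Hmgcs1, and in 1.45% of the 11323 tested genes with a promoter. It lay in 1.24% of all 32851 promoters. A CCAAT box lay in 24 members (85.7%) and in 42.2% of tested genes, and a GC box in 25 members (89.3%) and in 64.4% of tested genes. Members had 1.32 promoters per gene and tested genes 1.27. A match is only a description of the letters, and its absence says nothing of any factor.

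To show how these letters lie in genes that moved in opposite directions, the 250 bases before the start are printed for Mvk and Hmgcs1, which fell, and Msmo1 and Fasn, which rose under UV in WT mice. They held the most CCAAT boxes over the 300 bases searched among called members of either direction, with Hmgcs1 taken over Nsdhl (4 each) for its larger change, and the choice was made after the values were seen. The sequences run 5′ to 3′ on the gene's strand, with CCAAT boxes (ATTGG on the other strand) and the sterol regulatory element in capitals. Mvk lies at chr5:114444019-114444268 on the plus strand and Hmgcs1 at chr13:119690101-119690350 on the plus strand. Msmo1 lies at chr8:64733579-64733828 and Fasn at chr11:120824548-120824797, both on the minus strand.
Mvk: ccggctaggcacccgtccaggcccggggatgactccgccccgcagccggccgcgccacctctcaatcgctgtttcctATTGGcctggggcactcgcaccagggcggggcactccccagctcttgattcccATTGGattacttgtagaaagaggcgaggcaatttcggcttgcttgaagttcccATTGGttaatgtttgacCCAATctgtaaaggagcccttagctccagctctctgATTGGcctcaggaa
Hmgcs1: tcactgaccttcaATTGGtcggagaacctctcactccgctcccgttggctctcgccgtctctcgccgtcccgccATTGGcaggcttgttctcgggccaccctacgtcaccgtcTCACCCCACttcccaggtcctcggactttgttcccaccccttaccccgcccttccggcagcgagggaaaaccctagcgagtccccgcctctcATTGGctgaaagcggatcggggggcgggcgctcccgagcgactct
Msmo1: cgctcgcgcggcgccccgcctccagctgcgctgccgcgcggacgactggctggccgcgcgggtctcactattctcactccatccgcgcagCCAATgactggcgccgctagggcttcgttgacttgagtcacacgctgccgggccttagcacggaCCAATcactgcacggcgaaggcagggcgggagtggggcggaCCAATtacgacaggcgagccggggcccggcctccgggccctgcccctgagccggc
Fasn: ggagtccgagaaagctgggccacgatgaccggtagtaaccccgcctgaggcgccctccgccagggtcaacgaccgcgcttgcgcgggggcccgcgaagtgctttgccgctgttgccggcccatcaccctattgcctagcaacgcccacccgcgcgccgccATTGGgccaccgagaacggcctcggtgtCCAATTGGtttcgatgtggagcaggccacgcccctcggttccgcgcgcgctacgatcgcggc
The upstream stretch of Mvk held 5 CCAAT boxes and those of Hmgcs1, Msmo1 and Fasn 3 each, of which 2 in Fasn overlap. The element of Hmgcs1, at bases -137 to -129 from the start, is the run TCACCCCAC.

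The first comparison asked how the genes responded to UV in WT mice. UV moved 28 of the 33 genes at an adjusted P under 0.05, 8 higher and 20 lower. Sterol carriage, the first step of fatty acid synthesis and most sterol enzymes fell, whereas the sterol exporter Abcg1 rose most. UV moved much of the transcriptome, with 71% of all tested genes called, 34.5% higher and 36.5% lower, and the 28 of 33 members are to be read against this background. Values were negative for 25 of the 33 members (75.8%) and 50.7% of all genes. The median log2 fold change of the members was -0.31, against -0.01 over all genes tested. Over 1.5-fold, 3 members rose and 8 fell (21.8% and 26.1% of all genes). The 8 UV and 8 Control mice did not overlap for 4 genes that rose and 9 that fell (21.3% and 22.1% of all genes). Without the 9 mice with high muscle markers 24 of the 33 members were called, 7 higher and 17 lower, beside 10395 of 14767 genes.

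Of the 7 mevalonate genes, 2 rose, 4 fell and 1 did not pass. Hmgcs1 fell by 0.48 on the log2 scale (SE 0.0874), Mvk (mevalonate kinase) by 0.47, Mvd (the decarboxylase that makes isopentenyl diphosphate) by 0.60 and Fdps (farnesyl diphosphate synthase) by 0.53. Hmgcs1 lay at 493 to 780 cpm (median 692) in WT Control and at 396 to 547 cpm (median 489.9) in WT UV mice. Idi1, which acts between Mvd and Fdps, went the other way. It lay at 3.36 to 7.13 cpm (median 5.22) in Control and at 5.78 to 10.8 cpm (median 9.4) in UV mice, a log2 fold change of 0.84 (SE 0.156; adjusted P = 2.53e-05). The lowest UV mouse, the female 51F, was within the Control range and the other 7 were above it. Acat2, the thiolase that starts the path, rose by 0.21 (adjusted P = 0.048), a call lost when any 1 of 14 mice was left out (adjusted P = 0.050 to 0.109). The 14 include KO mice, which are outside this comparison and act only through the fit shared by all mice. Pmvk (phosphomevalonate kinase) had a log2 fold change of -0.09 (adjusted P = 0.37).

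Of the 12 squalene and sterol genes, 2 rose, 8 fell and 2 did not pass. Tm7sf2, a sterol C14 reductase, fell furthest, from 19.3 to 24.8 cpm (median 21.5) in Control to 8.98 to 13.0 cpm (median 10.4) in UV mice (log2 fold change -1.02, SE 0.117, adjusted P = 1.13e-08). No UV mouse reached the lowest Control mouse. Lbr, a nuclear envelope protein with the same reductase activity, fell by 0.52. Dhcr7, which makes cholesterol from 7-dehydrocholesterol, fell by 0.62, the sterol isomerase Ebp by 0.58 and the desaturase Sc5d by 0.49, and the UV and Control mice of Lbr, Dhcr7, Ebp and Sc5d did not overlap either. Cyp51 and Sqle (squalene epoxidase) fell by 0.27 and 0.28.

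Genes of a single step moved apart. Msmo1, Nsdhl and Hsd17b7 together remove the methyl groups at C4. Msmo1, the oxidase, rose from 230.4 to 328 cpm (median 266) in Control to 360.1 to 492 cpm (median 429.7) in UV mice (log2 fold change 0.68, SE 0.0886, adjusted P = 1.16e-07), with no overlap. Nsdhl, the dehydrogenase, fell by 0.31 at an adjusted P of 0.049. This went above 0.05 when any 1 of 22 mice was left out, KO mice outside this comparison among them. The reductase Hsd17b7 had a log2 fold change of -0.04 (95% confidence interval -0.32 to 0.23; adjusted P = 0.80). Lss, which closes squalene epoxide into lanosterol, rose by 0.42 (adjusted P = 0.00073). Fdft1, the squalene synthase, had a value of -0.08 (adjusted P = 0.43).

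The 5 regulators split, with 2 higher, 2 lower and 1 not called. Srebf1 fell from 121 to 154 cpm (median 126) in Control to 54.6 to 78.5 cpm (median 58.5) in UV mice (log2 fold change -1.08, SE 0.0900, adjusted P = 2.05e-11), and every UV mouse was below every Control mouse. Srebf2, at 277 to 357 cpm (median 334) and 269.9 to 329.9 cpm (median 289), had a log2 fold change of -0.15 (95% confidence interval -0.29 to -0.0039; adjusted P = 0.074), and the groups overlapped widely. Scap rose from 181 to 216 cpm (median 200.1) to 238 to 310.1 cpm (median 283; log2 fold change 0.46, SE 0.0611, adjusted P = 1.46e-07), again with no overlap.

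The INSIG genes moved in opposite directions. Insig1, itself an SREBP target, lay at 26.3 to 42.6 cpm (median 34.8) in Control and 31.0 to 54.7 cpm (median 39.5) in UV mice and rose by 0.32 (SE 0.115, adjusted P = 0.016). Insig2 lay at 90.5 to 112 cpm (median 102) and 63.2 to 91.5 cpm (median 80.2) and fell by 0.39 (SE 0.0915, adjusted P = 0.00038). Their ranges met in both cases.

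Stard4, the intracellular sterol carrier, was among the most reduced members. It lay at 173 to 301 cpm (median 242) in WT Control and at 92.5 to 112 cpm (median 102) in WT UV mice, without overlap (log2 fold change -1.22, SE 0.0849, adjusted P = 5.20e-13). The coefficient of variation was 18.1% in WT Control and 6.19% in WT UV mice, but 17.1% in KO Control and 21.6% in KO UV mice (n = 8 each).

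In fatty acid synthesis 1 gene rose and 4 fell. Acss2 dropped most, from 9.93 to 21.8 cpm (median 15) to 3.35 to 9.12 cpm (median 6.77; log2 fold change -1.32, SE 0.233, adjusted P = 1.29e-05). Acaca, the acetyl-CoA carboxylase that commits carbon to fatty acids, fell from 56.9 to 94.7 cpm (median 83.8) to 35.6 to 51.9 cpm (median 45.8; log2 fold change -0.87, SE 0.118, adjusted P = 2.09e-07). Neither gene's groups overlapped. Fasn, the synthase that uses the product of Acaca, rose by 0.54 (SE 0.106, adjusted P = 5.91e-05) from a median of 374 to 529 cpm. Me1, the malic enzyme that supplies NADPH, fell by 0.48 and Acly by 0.22. The call for Acly was lost without any of the females 59F, 62F or 73F (adjusted P = 0.052 to 0.077). Of these, 62F is a KO mouse outside this comparison.

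The 3 export genes differed. Abcg1, which moves sterols out to lipoproteins, rose from 27.9 to 32.6 cpm (median 29.6) to 58.4 to 99.9 cpm (median 73.9; log2 fold change 1.36, SE 0.0983, adjusted P = 1.27e-12), the largest increase of the 33 members and one without overlap. Abca1, the partner exporter and another LXR target, fell from 33.7 to 66 cpm (median 39.5) to 16.8 to 45.7 cpm (median 26.0; log2 fold change -0.63, SE 0.202, adjusted P = 0.0070). Mylip, an LXR-induced ubiquitin ligase, lay at 33.6 to 51.7 cpm (median 38.9) and 23.4 to 46.8 cpm (median 34.2), with a log2 fold change of -0.26 (95% confidence interval -0.54 to 0.02; adjusted P = 0.11).

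On the reference genome (GENCODE M21, GRCm38), the genes with the largest changes lie on several chromosomes. Abcg1 (ENSMUSG00000024030) spans 31057675 to 31117988 of chromosome 17, and Acss2 (ENSMUSG00000027605) spans 155517948 to 155585724 of chromosome 2. Srebf1 (ENSMUSG00000020538) lies at 60199089 to 60222581 and Acaca (ENSMUSG00000020532) at 84129672 to 84401651 of chromosome 11. Tm7sf2 (ENSMUSG00000024799) lies at 6062821 to 6068373 of chromosome 19, Idi1 (ENSMUSG00000058258) at 8885501 to 8892451 of chromosome 13 and Msmo1 (ENSMUSG00000031604) at 64718139 to 64733792 of chromosome 8. Counts are over whole genes, so no isoform is resolved. Tm7sf2 shares 7.92% of its 100-base windows with its neighbour Vps51.

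The second comparison asked the same of KO mice, which share no animals with the WT comparison. UV moved 27 of the 33 genes, 5 higher and 22 lower, with 70.8% of all tested genes called (37.3% higher, 33.5% lower). The members' median was -0.42, against 0.09 over all genes. Past 1.5-fold, 2 members rose and 13 fell (24.8% and 22.8% of all genes), and 1 rose and 9 fell without overlap (18.6% and 16.5%). Without 54F the call was 28 genes, 7 higher and 21 lower, and the share of all genes called in that fit is not given here.

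By role, 1 mevalonate gene rose and 5 fell, and 1 sterol gene rose and 9 fell. Of the regulators 1 rose and 3 fell, of fatty acid synthesis 1 rose and 4 fell, and of the export genes 1 rose. In both genotypes 5 genes were called higher, namely Idi1, Msmo1, Scap, Fasn and Abcg1, and 19 lower, and none was called in opposite directions. A further 4 were called in WT only (Acat2, Lss, Insig1, Abca1), 3 in KO only (Srebf2, Pmvk, Fdft1) and 2 in neither (Mylip, Hsd17b7). How all tested genes divide among these outcomes is not given here. Counts of members called in both genotypes, in 1 only or in neither thus have no background to be read against. For the genes called in 1 genotype only, the difference between genotypes was tested by the interaction below, and none of them passed.

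**Figure D2:**
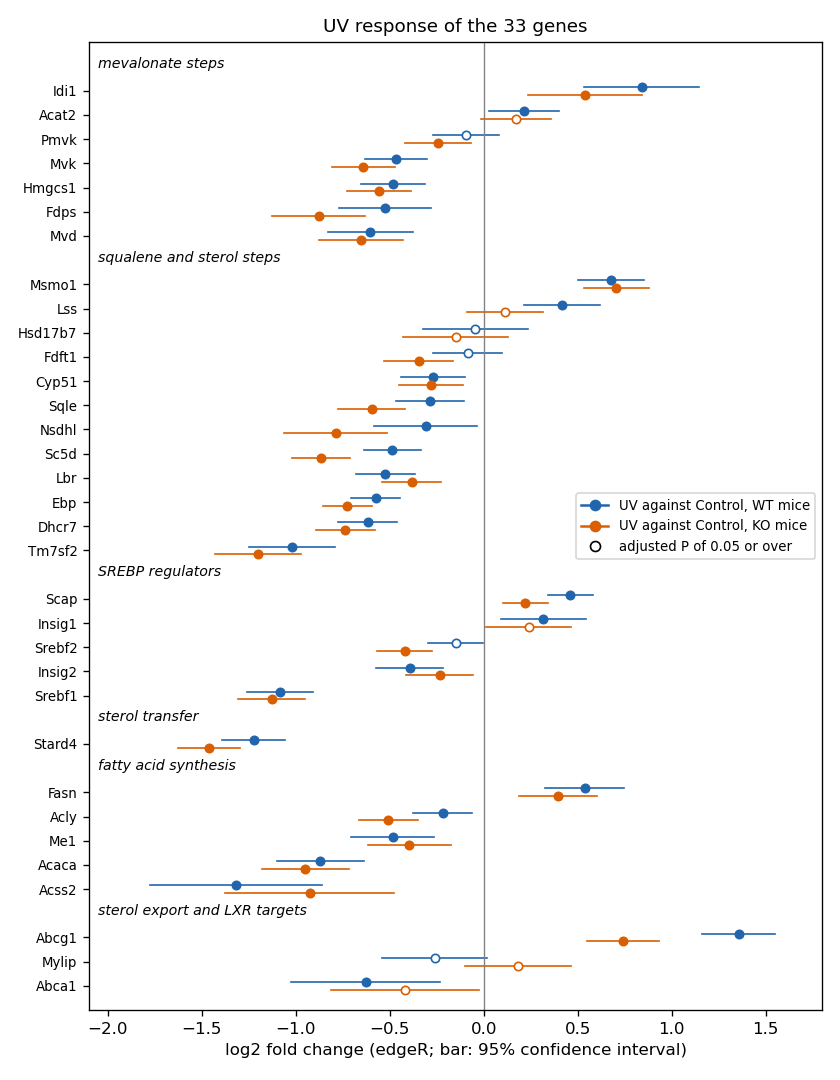
Log2 fold change of UV against Control in WT (blue) and KO (orange) mice for the 33 genes by role, with 95% confidence intervals and filled points for an adjusted P under 0.05. Most points lie left of 0, while Abcg1, Idi1, Msmo1, Fasn and Scap lie right of it in both genotypes.

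Stard4 fell again, from 219.9 to 342 cpm (median 280) to 75 to 142 cpm (median 103; log2 fold change -1.46, SE 0.0854, adjusted P = 1.86e-14). Srebf1 fell from 119 to 171 cpm (median 145) to 54.3 to 82.9 cpm (median 64.0; -1.13, SE 0.0901, adjusted P = 1.02e-11). Neither gene's KO UV mice reached the KO Control range. Msmo1 rose from a median of 294 to 466 cpm (log2 fold change 0.70, adjusted P = 6.14e-08), with ranges of 247 to 342 and 325 to 646 cpm that met.

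Tm7sf2 fell by 1.2, Acaca by 0.95, Acss2 by 0.93, Fdps by 0.88, Sc5d by 0.87 and Nsdhl by 0.79 on the log2 scale. Abca1 spread from 16.6 to 115 cpm (median 42.3) in KO UV mice and from 36.6 to 67.7 cpm (median 55.6) in KO Control mice. Its log2 fold change of -0.42 (adjusted P = 0.065) became -0.58 (adjusted P = 0.0071) without 54F, the mouse at 115 cpm. Without 54F, Acat2 and Insig1 also passed, and Pmvk and Insig2 no longer did. Srebf2 fell by 0.42 (adjusted P = 1.35e-05), from a median of 356 to 266 cpm.

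The plot of single mice sets these genes side by side. For Srebf1 and Stard4 the treatments separate in both genotypes, while Abca1 and Acss2 spread widely.

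**Figure D3:**
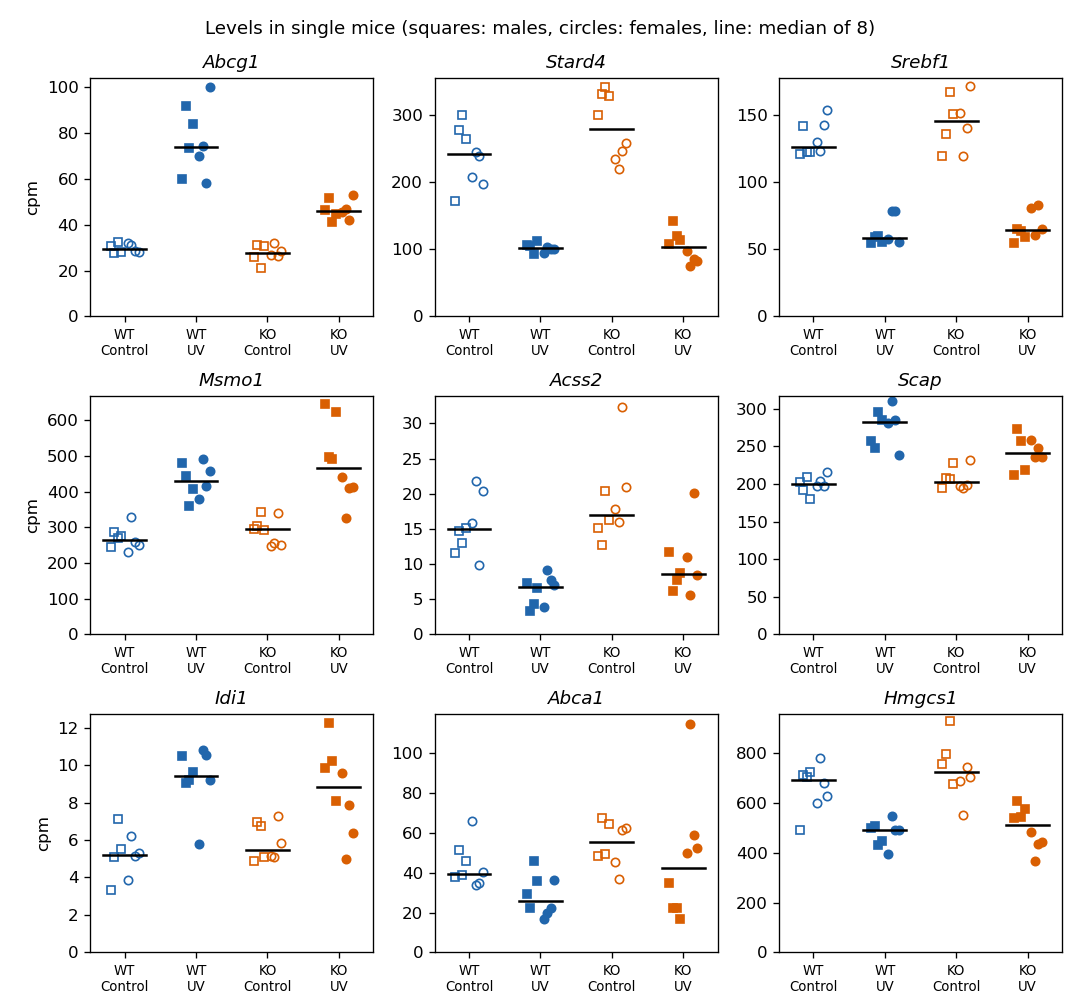
Level (cpm, from 0) of 9 genes in each of the 32 mice by genotype and treatment, with males as squares, females as circles and the median of 8 mice as a line. WT UV mice lie at 58.4 to 99.9 cpm for Abcg1 and KO UV mice at 41.0 to 53.1 cpm.

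UV was then compared within each sex and genotype (4 mice against 4, in the fit of all mice). UV moved 25 members in WT males (7 higher, 18 lower; 60.9% of all genes called), 20 in WT females (5 and 15; 61.3%), 25 in KO males (6 and 19; 61.7%) and 22 in KO females (3 and 19; 60.7%). The sign was positive in all 4 settings for 7 genes and negative in all 4 for 22, and it was mixed for the other 4, Lss, Hsd17b7, Mylip and Abca1. The share of all genes with the same sign in all 4 settings is not given here, so these counts have no background to be read against. The range for Abcg1 was 0.73 to 1.38 and that for Stard4 -1.49 to -1.16. Abca1 had log2 fold changes of -0.38 (adjusted P = 0.26) in WT males, -0.88 (0.0098) in WT females, -1.26 (0.00045) in KO males and 0.42 (0.20) in KO females, the group that holds 54F.

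The sex-by-UV interaction called no member (edgeR; 0.00% of all genes), and DESeq2 called none either. At an unadjusted P under 0.05, 2 members passed (7.02% of all genes), Abca1 with 0.59 (95% confidence interval 0.03 to 1.15) and Lss with -0.30 (-0.58 to -0.01).

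**Figure D4:**
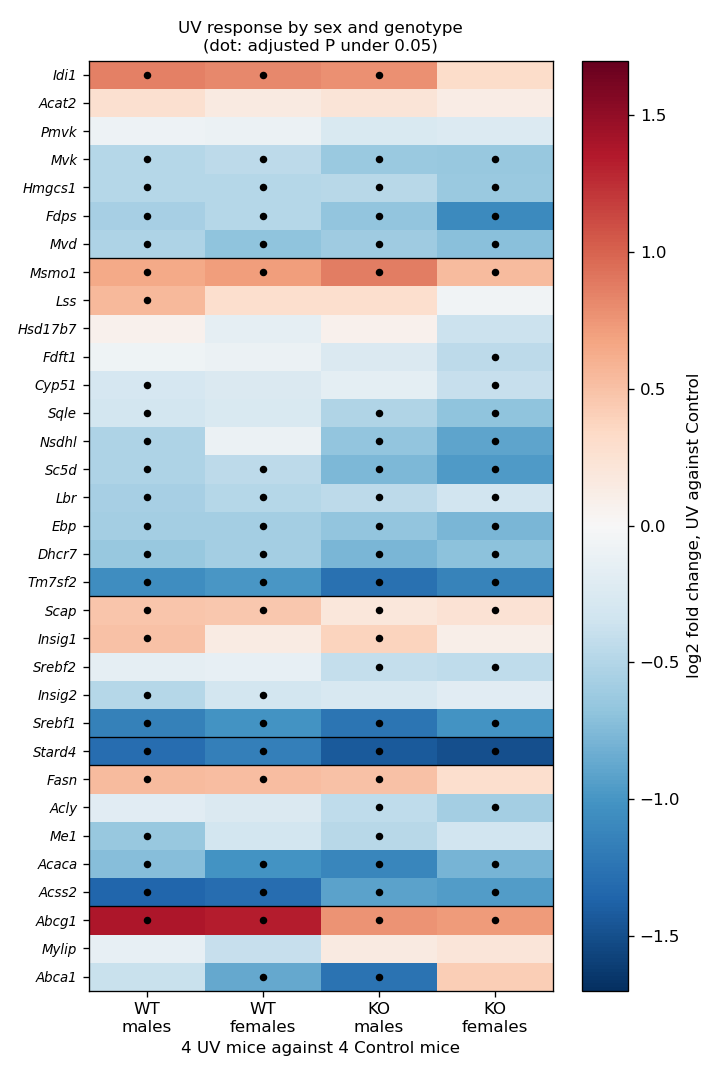
Log2 fold change of UV against Control (colour, red higher, blue lower) for the 33 genes in each sex and genotype, 4 UV against 4 Control mice, with dots for an adjusted P under 0.05. Stard4, Srebf1 and Tm7sf2 are blue and Abcg1, Msmo1 and Scap red in every column.

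Without UV, KO and WT mice were compared next. No member was called (edgeR; 0.206% of all genes), DESeq2 called 1, Ebp, and limma-trend none. At an unadjusted P under 0.05, 14 of 33 members passed, against 8.52% of all genes. The log2 fold change was positive for 29 of the 33 genes (87.9%), against 49.5% of all genes, with a median of 0.16 against -0.0015. The lean was seen in 11 of 12 sterol genes, 6 of 7 mevalonate genes, 5 of 5 regulators and 5 of 5 fatty acid genes, and in 1 of 3 export genes. Marker genes leaned with genotype too, with positive values for 4 of 5 suprabasal, 0 of 5 basal and 0 of 10 tested sebocyte markers, none of them called. Their part in the lean of the members was not tested. Nor are the members independent, as single mice stood high or low for several genes at once. KO male 52M was the highest KO Control mouse for Mvk (175.3 cpm), Sqle (569.5 cpm) and Cyp51 (492.2 cpm), though not for Nsdhl or Idi1. WT female 61F was the lowest WT Control mouse for Mvk (97.06 cpm), Sqle (282.8 cpm) and Cyp51 (260.3 cpm), though not for Idi1. The part of these mice in the lean was not tested.

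Ebp had the smallest P, at 107 to 141 cpm (median 122) in WT and 125 to 175 cpm (median 143) in KO Control mice (log2 fold change 0.27, 95% confidence interval 0.14 to 0.40, adjusted P = 0.11). It passed without the male 44M (adjusted P = 0.025) or the female 63F (adjusted P = 0.045). Nsdhl had a value of 0.44, Fdps 0.32, Mvd and Fdft1 0.30 each and Sqle 0.27, with adjusted P values of 0.31 to 0.43. With raw library sizes 26 genes were positive and the median was 0.09, while that of all genes moved to -0.08. In male mice alone 29 genes were positive and 14 passed an unadjusted P of 0.05, and in female mice alone 26 and 1. Of all genes, 50.9% were positive in males and 48.6% in females. The share of all genes under that unadjusted P within a single sex is not given here. The 14 and the 1 thus have no background to be read against.

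After UV, KO and WT mice differed in 1 member, Abcg1, against 3.31% of all genes (0.618% lower). It was lower in KO UV mice, at 41.0 to 53.1 cpm (median 46.1) against 58.4 to 99.9 cpm (median 73.9) in WT UV mice (log2 fold change -0.72, SE 0.0969, adjusted P = 0.00011). The groups did not overlap, as for 0.129% of all genes that were lower. In Control mice of the same genotypes the levels were 21.2 to 31.9 cpm (median 27.7) in KO and 27.9 to 32.6 cpm (median 29.6) in WT. The members' median was 0.02, and 17 values were positive and 16 negative, but the sexes leaned apart. Without 54F Abcg1 was again the only member called (-0.73, adjusted P = 0.00028), and the share of all genes called in that fit is not given here.

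Scap (log2 fold change -0.18, adjusted P = 0.088), Acss2 (0.69, adjusted P = 0.088) and Abca1 (0.53, adjusted P = 0.13) came next, and without 54F Abca1 had 0.34 (adjusted P = 0.33). Scap passed without any of the mice 52M, 59M or 77F (adjusted P = 0.028 to 0.047), of which 52M is a Control mouse outside this comparison. Without the 9 mice with high muscle markers Abcg1 was the only member called (-0.74, adjusted P = 0.012), beside 26 of 14767 genes.

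In male mice alone, 26 members were positive and 7 negative (median 0.16), with 49.9% of all genes positive. None passed (7 of 14600 genes did), Abcg1 having -0.76 (adjusted P = 0.075). In female mice alone, 8 members were positive and 25 negative (median -0.22), with 45.9% of all genes positive. Abca1 (1.47, adjusted P = 0.019), Sc5d (-0.46, adjusted P = 0.027) and Abcg1 (-0.74, adjusted P = 0.013) passed. These are 3 of 33 members, beside 1383 of 15342 genes. Without 54F the females had 11 positive and 22 negative values (median -0.13), with 45.5% of all genes positive. Abca1 and Abcg1 then passed, beside 373 of 14921 genes. The difference between the sexes was then tested in the fit of all mice, a test added after these values were seen. It called Abca1 (female minus male 2.01, SE 0.406, adjusted P = 0.041; 0.122% of all genes), and 11 members passed an unadjusted P of 0.05 (14.4% of all genes). The difference was negative for 27 of the 33 members, against 48.1% of all genes.

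Abca1 lay at 49.7 to 115 cpm in KO UV females and 16.8 to 36.3 cpm in WT UV females, and at 16.6 to 34.9 cpm in KO UV males and 22.5 to 45.7 cpm in WT UV males. The genotypes did not overlap in females, where KO was higher, and overlapped in males. The share of all genes without overlap within a single sex is not given here. The separation in females thus has no background to be read against, and Abca1 was looked at because it was called. Without 54F the difference between the sexes for Abca1 was 1.65 (SE 0.369, adjusted P = 0.113), no member was called, and 26 members were negative. Of the 15157 genes tested in that fit, 1 was called and 50.2% were negative.

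**Figure D5:**
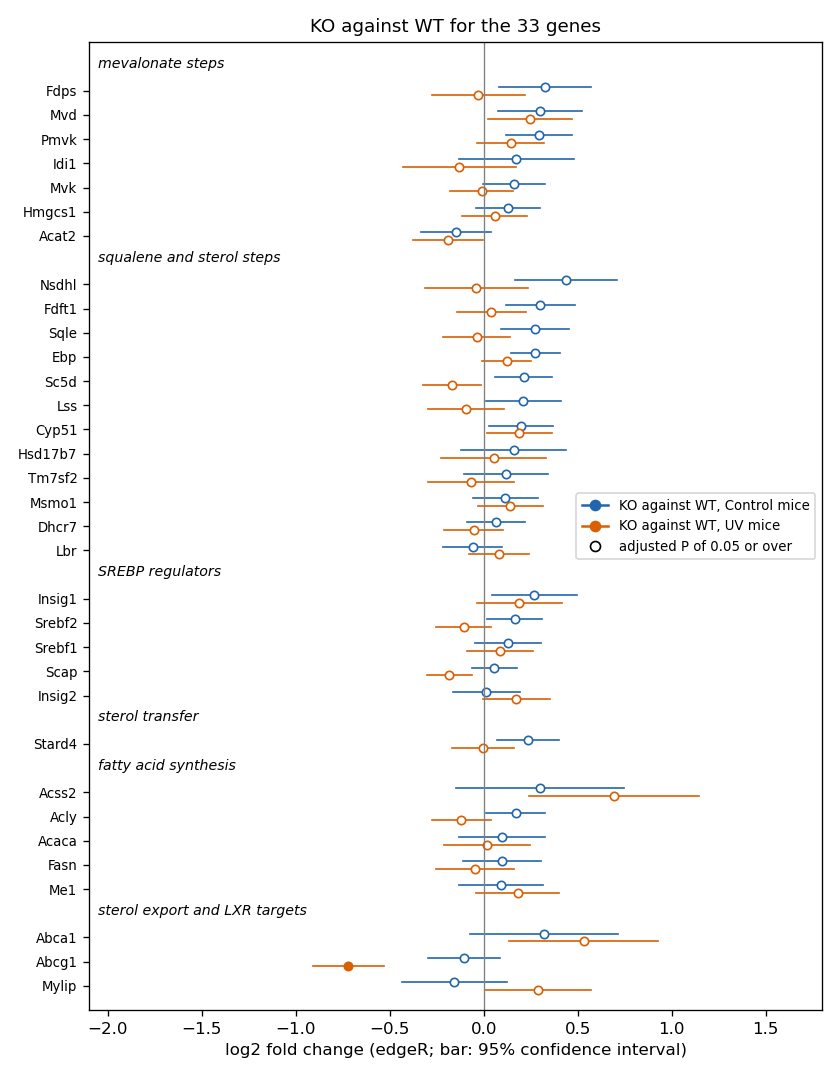
Log2 fold change of KO against WT in Control (blue) and UV (orange) mice for the 33 genes by role, with 95% confidence intervals and filled points for an adjusted P under 0.05. Only Abcg1 in UV mice is filled, at -0.72, and 29 of the 33 Control values lie right of 0.

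The genotype-by-UV interaction, which uses all 4 sets of mice and thus shares them with the comparisons above, called Abcg1 (0.765% of all genes). UV raised it by 1.36 in WT and 0.74 in KO mice (interaction -0.62, SE 0.137, adjusted P = 0.028). This call was lost without either of the mice 69F or 69M (adjusted P = 0.051 and 0.056), with raw library sizes, within each sex alone and without the 9 mice with high muscle markers (-0.60, adjusted P = 0.105). At an unadjusted P under 0.05, 9 members passed, against 19.6% of all genes, among them Sc5d (-0.38, adjusted P = 0.083) and Srebf2 (-0.27, adjusted P = 0.16). The interaction was negative for 26 of the 33 members (78.8%) and for 45.7% of all genes, and with raw library sizes for 22 members. It was also negative for 5 of 5 suprabasal markers and positive for 5 of 5 basal and 10 of 10 tested sebocyte markers, none of them called, and their part was not tested. Without 54F Abcg1 was again called (-0.64, adjusted P = 0.030), with no other member, and the share of all genes called in that fit is not given here.

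Abcg1 lies 2.76 Mb from Ppard on chromosome 17. Of the 214 tested genes within 5 Mb of Ppard, 28 (13.1%) were called for KO against WT after UV, against 3.31% of all genes. For the interaction 4 (1.87%) were called, against 0.765% of all genes, and without UV 9 (4.21%), against 0.206%. The part of this position in the Abcg1 result was not tested. Acat2, the other member measured on this chromosome, is 15.3 Mb away and was not called.

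Between the sexes without UV, 1 member was called, Stard4, against 6.86% of all genes (4.64% lower in females). In Control mice it lay at 198 to 245 cpm in WT females and 173 to 301 cpm in WT males, and at 219.9 to 259.5 cpm in KO females and 300.5 to 342 cpm in KO males (log2 fold change -0.32, SE 0.0836, adjusted P = 0.025). The sexes overlapped in WT mice and not in KO mice. The share of all genes without overlap within a single genotype is not given here, so the separation in KO mice has no background to be read against. The call was lost without any of 7 mice, without the 9 mice with high muscle markers (-0.32, adjusted P = 0.124), with raw library sizes and with another filter on low counts. All 12 sterol genes had negative values, between -0.23 and -0.0057, in the main scaling. With raw library sizes the median of all genes moved from -0.02 to 0.11 and that of the 33 members from -0.05 to 0.09, and 23 members were positive. Of the cell type markers, 3 of 3 endothelial markers were called higher in females, and no other was called. Values were positive for 6 of 6 skeletal muscle, 9 of 10 tested sebocyte, 3 of 3 tested adipocyte and 5 of 5 T cell markers. They were positive for 4 of 5 Langerhans cell, 3 of 6 dermal fibroblast and 2 of 4 tested neutrophil and macrophage markers. The same held for 3 of 5 basal, 3 of 5 suprabasal and 0 of 3 tested melanocyte markers. Their part in the Stard4 result was not tested beyond the fit without the 9 mice.

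Of 24 further genes of the same pathways, listed by name, 23 were tested, and under UV in WT mice 8 rose, 11 fell and 4 did not pass, against 34.5% of all genes higher and 36.5% lower. Those with the largest changes were Ch25h, which makes 25-hydroxycholesterol (log2 fold change 3.40, SE 0.570, from a median of 0.0915 to 1.44 cpm, so at a low level), the fatty acid elongase Elovl6 (-1.99), the sterol 27-hydroxylase Cyp27a1 (-1.96), the desaturases Fads1 and Fads2 (-1.88 each) and Scd2 (-1.52). Mbtps1, the first of the proteases that cleave SREBP and chosen after its value was seen, fell by 1.00 (SE 0.0668, adjusted P = 2.23e-13).

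In KO mice 7 of the 23 rose and 8 fell, against 37.3% and 33.5% of all genes. Fads1 and Fads2 were among those that did not pass (-0.47, adjusted P = 0.13, and -0.69, adjusted P = 0.14) and did so without 54F (-1.01, adjusted P = 5.68e-06, and -1.12, adjusted P = 0.012). After UV, KO mice had higher Fads1 than WT mice (log2 fold change 1.32, SE 0.286, adjusted P = 0.014) and lower Erlin1, a membrane protein found with SCAP and INSIG (-0.20, SE 0.0475, adjusted P = 0.024). Fads1 lay at 1.59 to 3.67 cpm in 7 KO UV mice, 19.4 cpm in 54F and 1.04 to 2.29 cpm in WT UV mice, and without 54F the value was 0.75 (SE 0.167, adjusted P = 0.023). Elovl6 then passed as well (1.09, SE 0.262, adjusted P = 0.035). Of 10 tested sebocyte markers, 8 rose and none fell under UV in KO mice (median log2 fold change 2.42), and 4 rose and 1 fell in WT mice (median 0.06), and their part in these values was not tested.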

How the data were processed

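Single-end reads from stranded mRNA libraries of 500 ng of epidermal RNA (RQN 6.4 to 8.4 per the labels) had been trimmed with cutadapt 1.8, aligned with STAR 2.5.3a and counted per gene with HTSeq 0.9.1 on GRCm38, per the submitters' processing notes. The authors deposited whole-number read counts without normalization or filtering. Reads without a feature (6.8 to 9.75%) stayed out of library sizes.

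A gene entered the tests once any of the 32 mice reached 1 cpm. Counts were scaled by TMM and fitted with 8 group means in edgeR 4.0.16 (quasi-likelihood test, R 4.3.3), with sexes or genotypes averaged in each contrast and Benjamini-Hochberg adjustment over all 15546 genes. Standard errors came from the fold change and the F statistic. Levels are TMM-scaled cpm of single mice. The method was tested on simulated data. Replicates are separate mice. The 48 same-group pairs were searched for duplicate deposits of a library, and none was found (chi-square per degree of freedom at least 21.9). Intervals cover the spread between mice. Limma-trend 3.58.1, the study's own test, and DESeq2 1.42.0 were alternatives. Members, lists and tests were chosen with earlier results of these data known. Values are given for the 8 called members with the largest change under UV in WT mice, all members called for genotype or sex, the regulators, Stard4 and the export genes, and for the 6 other pathway genes with the largest change. Some pathway genes are not reported here by name.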

Additional observations from a re-analysis of the deposited data

Results flagged for a closer look

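In each set of 8 mice of a genotype and treatment, the gap between an extreme mouse and its nearest neighbour was set against the range of the set for every member. It passed the 95% critical value of Dixon's test for 8 values in 9 of 132 cases, where chance gives about 1 in 20. In KO Control mice the male 52M was high for Mvd (102 cpm, next 77.4), Fdps (38.3 cpm, next 29.9) and Fdft1 (263 cpm, next 203), and the female 62F for Acss2 (32.4 cpm, next 21.0). In KO UV mice the female 54F was low for Dhcr7 (144 cpm, next 196) and high for Abca1 (115 cpm, next 59.1), and 66F was high for Acss2 (20.1 cpm, next 11.8). In WT UV mice 51F was low for Idi1 (5.78 cpm, next 9.05) and 57F high for Fasn (735 cpm, next 577).

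The UV response of Abcg1 differed between genotypes in the interaction test (-0.62 on the log2 scale, edgeR adjusted P = 0.028). KO against WT after UV differed between the sexes for Abca1 (female minus male 2.01 on the log2 scale, edgeR adjusted P = 0.041), a call lost without 54F (1.65, adjusted P = 0.113).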

How the results depend on the processing

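Counts of called members changed by over 1.5 times in these cases. UV in WT mice gave 28 members and 18 with female mice only, beside 11039 of 15546 genes and 9481 of 15342 genes. KO against WT without UV gave 0, and 1 with DESeq2 (leave-one-out range 0 to 1). KO against WT after UV gave 1, against 3 with DESeq2, 2 with filterByExpr, 0 with male and 3 with female mice only (leave-one-out 1 to 2). The genotype-by-UV interaction gave 1, against 3 with DESeq2 and 0 with male mice only, female mice only or raw library sizes (leave-one-out 0 to 1). Females against males without UV gave 1, against 2 with DESeq2 and 0 with filterByExpr, no filter, the compared groups only or raw library sizes (leave-one-out 0 to 3). The cause was not tested, beyond the smaller number of mice in fits of 1 sex. Over all genes, KO against WT after UV called 514, against 1116 with DESeq2, 260 with limma-trend, 263 with no filter, 40 in the compared groups only, 7 in male and 1383 in female mice only. Without UV it called 32, against 78 with DESeq2, 15 in the compared groups only, 5 in male and 2 in female mice only. The interaction called 119, against 841 with DESeq2, 55 with no filter, 6 in male and 12 in female mice only, and sex-by-UV 0, against 22 with DESeq2 and 2 with limma-trend. Females against males called 1066, against 1676 with DESeq2, 653 with filterByExpr and 327 with no filter. For KO against WT, 13 members changed sign after UV with males only and 9 with females only, and 3 without UV with females only. Of the single UV responses, these changed sign, none of which had been called. Lss under UV in KO mice became -0.081 with females only, Abca1 under UV in KO mice 0.38 with females only, and Hsd17b7 0.093 in WT and 0.094 in KO mice with males only (leave-one-out range in WT mice -0.138 to 0.0078). Raw library sizes and the fits without 54F or the 9 mice with high muscle markers were added after seeing the data. With raw library sizes all 132 median levels moved by less than 1 SD. The depth per mouse limits Ch25h, Fads2 and other genes near 1 cpm most. No paired analysis was possible because the replicate names are mouse numbers that no label ties across groups.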
